A study of Mus musculus with 18 samples.

Results

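The 10 genes described here encode the transcription factors that set B cell identity and the choice between the activated B cell and the plasma cell, namely Pax5, Ebf1, Spi1, Spib, Irf4, Irf8, Bach2, Bcl6, Prdm1 and Ikzf3. They were chosen by name, with earlier results of these data known, and all 10 were matched by Ensembl identifier among 55487 counted genes. Of these genes, 15318 had enough reads to be tested, among them 9 of the 10 factors. Prdm1 was the exception. RNA was sequenced from the murine B cell lymphoma line WEHI-231, which has an immature phenotype, carries surface IgM and responds to its ligation. The 18 libraries covered 3 genotypes at 3 times, with 2 libraries from independent experiments per group. The genotypes were parental cells, labelled WT, and the TFEB knockout clones #A-59 and #B-20. Cells of each genotype were either left unstimulated (0 h) or BCR-stimulated with 10 µg/ml of anti-IgM F(ab')2 fragments for 6 or 18 h. Both mutants had been made by electroporation of crRNA, tracrRNA and Cas9 protein followed by single clone dilution. Each mutant is therefore 1 clone, and a trait of the clone and an effect of the Tfeb mutation cannot be told apart in a comparison of 1 clone with parental cells.

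Pax5 and Ebf1 establish and keep the B lineage program, in which they switch on the genes of the B cell receptor and its coreceptors. Pax5 also silences genes of other lineages. Spi1 (PU.1) and Spib are related ETS factors that can bind DNA together with Irf4 or Irf8 at composite elements. Ikzf3 (Aiolos) is an Ikaros family zinc finger protein of maturing B cells. Bach2 and Bcl6 are repressors that hold back plasma cell differentiation, whereas Irf4 at high levels and Prdm1 (Blimp-1) drive it, and Prdm1 in turn represses Pax5 and Bcl6. TFEB is a basic helix-loop-helix factor that binds E-boxes of lysosomal and autophagy genes and enters the nucleus of B cells when their antigen receptor is engaged.

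Sequencing depth lay between 11223588 and 29655262 counts per library (median 19846544). Tfeb, the targeted gene, was measured at 79.2 to 99.9 CPM (TMM-scaled counts per Mio) in the 6 parental libraries and at 25.5 to 54.1 CPM in the 12 mutant libraries, so that the ranges did not overlap. Replicate 2 of #B-20 at 6 h stood apart, because a single identifier took 2.9% of its counts, against 0.553 to 0.819% for the leading gene of the other libraries. All 8 markers of B cells were tested, and their summed level reached 5360 to 10300 CPM (parental), 6530 to 11500 CPM (#A-59) or 5650 to 9280 CPM (#B-20). The summed level of 8 T cell markers lay between 7.53 and 22.6 CPM, nearly all of it from Cd5, which some B cells carry. The summed level of 8 myeloid markers was 1.97 to 9.1 CPM (parental), 7.86 to 27.9 CPM (#A-59) or 2.85 to 7.21 CPM (#B-20). In #A-59 most of this sum was Itgam (CD11b, up to 26.3 CPM). The receptor gene Csf1r was at 2.16 and 0.966 CPM in #A-59 at 6 h, against 0.306 and 0.327 CPM in parental cells, and it was a DEG in this clone from 0 to 6 h, as was Adgre1 (F4/80). Lyz2 and Cd14 were at 0 in all libraries of #A-59. The part of these markers in the results was not tested. Summed erythroid markers reached at most 1.76 CPM and fibroblast markers at most 0.675 CPM. In such bulk libraries, fewer cells of a type and less RNA per cell cannot be told apart.

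Across these libraries Spib and Pax5 were among the most abundant mRNAs of the cells, and Bcl6 and Prdm1 were barely detected. Judged by the mean log2 CPM, 99.9% of the tested genes lay below Spib, 99.8% below Pax5, 97.4% below Ikzf3 and 95.9% below Bach2. The corresponding shares were 85.7% for Ebf1, 79.9% for Irf4, 74.9% for Irf8, 74.3% for Spi1 and 13.2% for Bcl6. To compare genes with each other, CPM values were divided by the length of all exons of a gene in kb. On this scale of CPM per kb, untreated parental cells had a mean level of 1050 for Spib, 214 for Pax5, 41.7 for Ikzf3, 33 for Irf4, 19.7 for Spi1, 19 for Bach2, 13.4 for Ebf1, 6.66 for Irf8, 0.0556 for Bcl6 and 0.00368 for Prdm1. Spi1 and Bach2 were the only neighbors in this order whose 2 libraries overlapped. At 18 h of BCR stimulation in parental cells, Irf4 had moved from the fourth to the seventh place with 10.2 CPM per kb, below Bach2 (34.7), Spi1 (25) and Ebf1 (15.8). Irf4 also took the seventh place at 18 h in #A-59 (11.5 CPM per kb) and in #B-20 (12.5 CPM per kb).

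**Figure D1:**
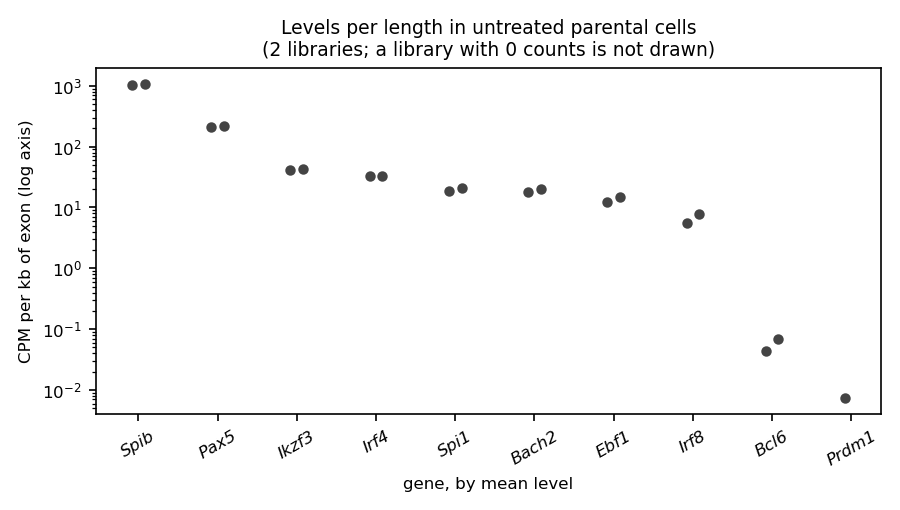
Levels of the 10 factors in CPM per kb of exon (log axis) in the 2 untreated parental libraries, ordered by their mean. Spib (1050) and Pax5 (214) stand above the other genes, Bcl6 (0.0556) and Prdm1 (0.00368) far below them, and a library with 0 counts of Prdm1 is not drawn.

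The changes summarized here concerned Irf4, Pax5, Ikzf3, Irf8, Bach2 and Spib. Irf4 fell after BCR stimulation in all 3 genotypes, and at 6 h it was lower in both mutants than in parental cells. Pax5 and Ikzf3 dipped at 6 h in parental cells, and both were higher in the mutants than in parental cells at this time. Irf8 separated the clones, as it was lower than parental in #A-59 at 6 h and higher than parental in #B-20 at 6 and 18 h. Bach2 and Spib rose by 18 h in all 3 genotypes, Spib after a fall at 6 h in parental cells. A difference is given below as a log2-fold change with its standard error from an edgeR model of all 18 libraries, and the verbs "rose" and "fell" are used for an adjusted p (FDR) under 0.01. A gene is called a DEG where the log2-fold change was in addition above 1 or below −1. Of the 54 tests of a mutant against parental cells, 17 reached an FDR under 0.01 and 1 was a DEG. Of the 54 tests of a stimulated against an untreated group, 20 reached this FDR and 4 were DEGs. Comparisons of the 2 clones with parental cells use the same parental libraries and are not independent of each other.

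**Figure D2:**
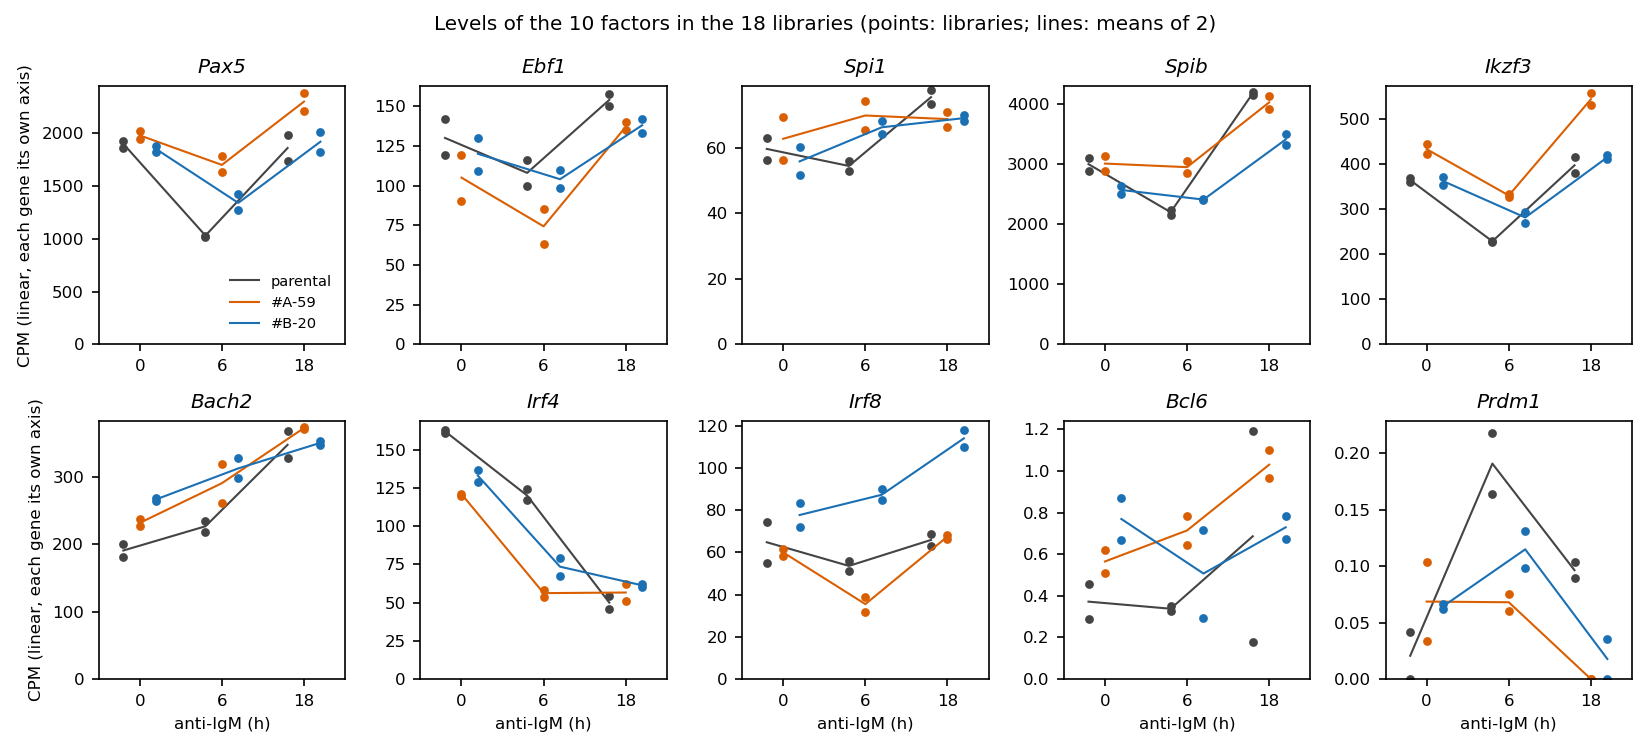
CPM of the 10 factors (one panel each, linear axis from 0) against hours of anti-IgM, with 1 point per library and lines through the means of 2 libraries, colored by genotype. Irf4 declines from 161 and 163 CPM to 54.3 and 45.7 CPM in parental cells, Pax5 dips at 6 h most deeply in parental cells, and Irf8 of #B-20 lies above the other genotypes at 6 and 18 h.

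In untreated cells the 3 genotypes differed little in these factors. Irf4 was lower in #A-59 than in parental cells, which is 1 of 9 factors, where 9.56% of all tested genes changed at this FDR. Bach2 was higher in #B-20 than in parental cells, again 1 of 9 at a background of 10.7%. Neither was a DEG, a class that held 4.78% and 5.16% of all tested genes. At 6 h of stimulation, 7 of 9 factors differed between #A-59 and parental cells, against 22.7% of all tested genes. Pax5, Spib, Bach2 and Ikzf3 were higher (4 factors, background 11.4%) and Ebf1, Irf4 and Irf8 were lower (3 factors, background 11.3%), with Irf4 as the 1 DEG (background 7.91%). In edgeR with only the libraries compared, Bach2 (0.37, FDR 0.0794), Ebf1 (−0.52, FDR 0.0531), Spib (0.44, FDR 0.0328) and Irf8 (−0.58, FDR 0.0187) did not pass. In #B-20 at 6 h, 5 of 9 factors differed from parental cells, against 14.2% of all tested genes. Pax5, Irf8, Bach2 and Ikzf3 were higher (background 6.23%), Irf4 was lower (background 8%), and none was a DEG, where 6.73% of all tested genes were. At 18 h, Ikzf3 was higher in #A-59 (1 of 9, background 10.4%, DEGs 4.92%), whereas in #B-20 Irf8 was higher and Spib lower (2 of 9, background 14.2%, DEGs 6.21%). The median log2-fold change of the 9 factors at 6 h was 0.36 in #A-59 and 0.30 in #B-20, while that of all tested genes was −0.01 and 0.01. The background shares cover tested genes of all levels and were not matched to the levels of the factors. All factors tested but Bcl6 lay above at least 74.3% of these genes.

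Within parental cells, 4 of 9 factors fell from 0 to 6 h, where 4.24% of all tested genes fell, and none rose, where 3.1% did. DESeq2 likewise found no factor that rose, and at an unadjusted p under 0.05 edgeR gave 1, Bach2. Those that fell were Pax5, Spib, Irf4 and Ikzf3, and none was a DEG at a background of 2.62%. From 0 to 18 h, Spib and Bach2 rose (background 16.4%) and Irf4 fell (background 16.2%) as the 1 DEG (background 10.3%). In #A-59, Irf4, Irf8 and Ikzf3 fell from 0 to 6 h (3 of 9, background 3.69%), Irf4 as a DEG (background 1.39%). From 0 to 18 h Spib, Bach2 and Ikzf3 rose in this clone (background 14.7%) and Irf4 fell as a DEG (background 17.1% for lower genes and 8.76% for DEGs). In #B-20, Pax5 and Irf4 fell from 0 to 6 h (2 of 9, background 0.875%) without a DEG, where 0.385% of all tested genes were DEGs. From 0 to 18 h Spib, Irf8 and Bach2 rose in #B-20 (background 11.4%) and Irf4 fell as a DEG (background 11.4% for lower genes and 4.8% for DEGs). Between 6 and 18 h most changes were upward, with 6 of 9 factors rising in parental cells (background 19.4%), 6 in #A-59 (background 14.9%) and 3 in #B-20 (background 11.5%). The median log2-fold change between 6 and 18 h in parental cells was 0.62 for the 9 factors and 0.03 for all tested genes. Irf4 in parental cells was the 1 factor that fell in this interval (background 18.9% for lower genes and 13.5% for DEGs).

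**Figure D3:**
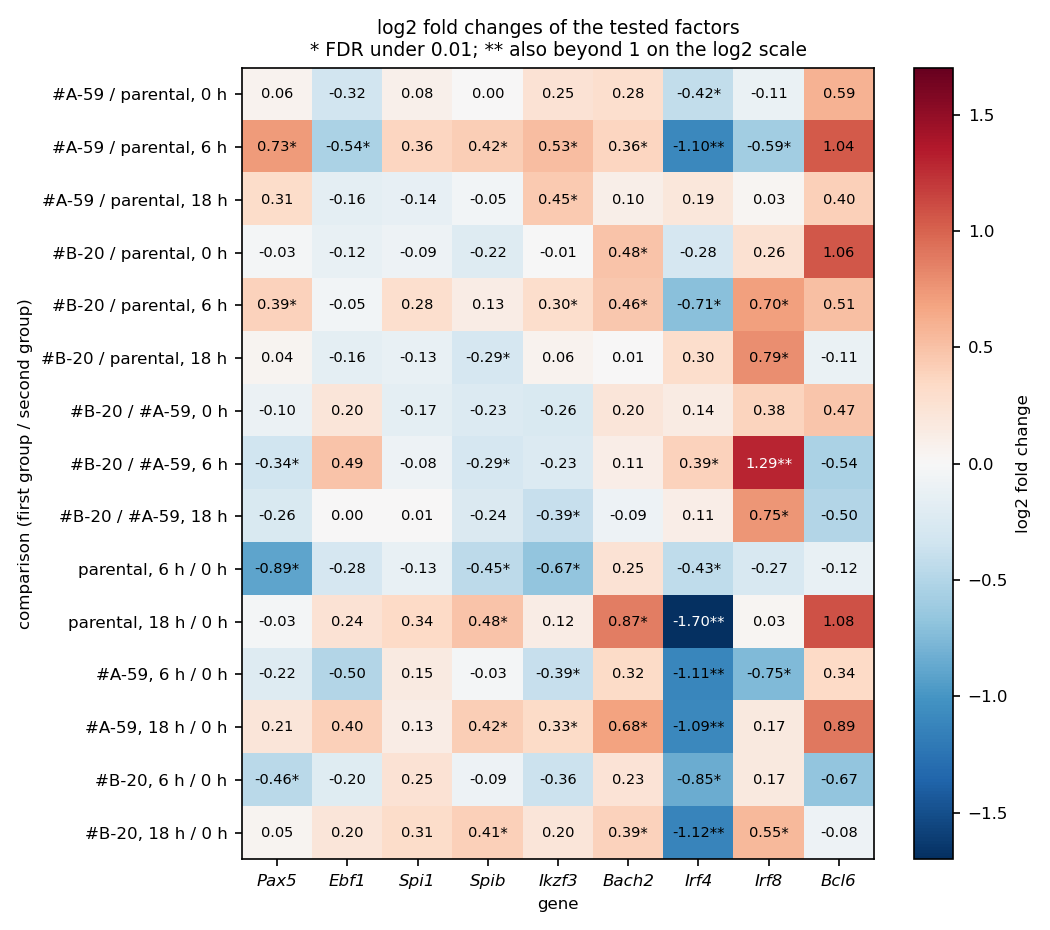
Heat map of the log2-fold change of the 9 tested factors (columns) in 15 comparisons (rows), 9 between genotypes and 6 of a stimulated with the untreated group, where 1 star marks an FDR under 0.01 and 2 stars mark a DEG. Irf4 carries 5 of the 6 cells with 2 stars, the deepest at −1.70 in parental cells from 0 to 18 h, Irf8 of #B-20 against #A-59 at 6 h carries the other (1.29), and Spi1 and Bcl6 have no star.

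Pax5 (chr4:44524748-44710694, GRCm38) had the clearest dip in parental cells. Its 2 libraries measured 1860 and 1930 CPM untreated, 1030 and 1020 CPM after 6 h, then 1980 and 1740 CPM after 18 h. The 6 h libraries thus lay far below those of the other times, and the latter overlapped. The fall to 6 h had a log2-fold change of −0.89 ± 0.09 (SE, n = 2 per group, edgeR FDR = 1.07e-06), which is 1.85-fold, and Pax5 then rose by 0.86 (edgeR FDR = 1.94e-07) to 18 h. In #A-59, Pax5 was at 2020 and 1950 CPM untreated, 1780 and 1630 CPM after 6 h, then 2380 and 2210 CPM after 18 h. The change to 6 h in this clone, −0.22, did not pass (edgeR FDR = 0.101). In #B-20, Pax5 was at 1820 and 1880 CPM, then 1420 and 1270 CPM, then 1820 and 2010 CPM, and its fall to 6 h had a log2-fold change of −0.46 ± 0.09 (edgeR FDR = 0.0045). At 6 h all 4 mutant libraries therefore exceeded both parental libraries. Pax5 was higher than parental by 0.73 ± 0.09 in #A-59 (edgeR FDR = 2.77e-06) and by 0.39 ± 0.09 in #B-20 (edgeR FDR = 0.00239). No difference was detected at 0 h, where the 95% interval for #A-59 was −0.12 to 0.24. At 18 h the difference in #A-59 was 0.31 ± 0.09 (edgeR FDR = 0.0185), and it passed in DESeq2 (FDR 0.00709), with the GC correction (FDR 0.00372), without a filter on low counts (FDR 0.00529) and with only the libraries compared (FDR 0.00395). The response of #A-59 to 6 h differed from the parental response by 0.67 ± 0.12 on the log2 scale (95% interval 0.41 to 0.93, edgeR FDR = 0.00579). It was the 1 factor of 9 that passed this test of the difference itself, where 0.646% of all tested genes passed. No factor passed this test in #A-59 at 18 h or in #B-20 at 6 and 18 h, where 0.0392%, 0.183% and 0.222% of all tested genes did. At an unadjusted p under 0.05 edgeR gave 1, 6 and 3 of the 9 factors in these 3 comparisons, and DESeq2 gave 0 in each at an FDR under 0.01. The same difference in #B-20 was 0.43 (edgeR FDR = 0.175). The fall in #B-20 did not pass without any 1 of the 4 libraries compared (FDR up to 0.102 without replicate 2 at 6 h), and the difference of #B-20 from parental cells at 6 h did not pass without either parental 6 h library (FDR 0.0281 and 0.0402) or without replicate 1 of #B-20 (0.0676). Without replicate 2 of #B-20 at 6 h, the library that stood apart, the difference of #B-20 was 0.47 (FDR 0.00494). The difference in response of #A-59 did not pass in 11 of 18 fits that left out 1 library each (log2 0.60 to 0.73, FDR up to 0.0515 without replicate 2 of parental cells at 6 h). Pax5 overlaps 2 counted genes on the opposite strand, Gm12462 and 5730488B01Rik, by 125 and 636 bases. Reads in these stretches could not be assigned by strand, and their number was not measured. These genes measured at most 3.46 and 37.4 CPM.

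Ikzf3 (chr11:98464610-98546031) followed the parental course of Pax5. It was at 361 and 370 CPM untreated, 229 and 228 CPM after 6 h, then 416 and 380 CPM after 18 h in parental cells. The fall to 6 h was −0.67 ± 0.08 (edgeR FDR = 5.64e-06), and the rise from 6 to 18 h was 0.80 (edgeR FDR = 1.02e-07). The libraries of #A-59 measured 445 and 423 CPM, 328 and 334 CPM, and 558 and 532 CPM at the 3 times. Those of #B-20 measured 371 and 355 CPM, 294 and 270 CPM, and 411 and 421 CPM. At each time both libraries of #A-59 lay above both parental libraries. The difference was 0.53 ± 0.08 at 6 h (edgeR FDR = 2.73e-05) and 0.45 ± 0.08 at 18 h (edgeR FDR = 2.63e-04). For #B-20 it was 0.30 ± 0.08 at 6 h (edgeR FDR = 0.00674), a value that no longer passed in 16 of 18 fits with 1 library left out (FDR up to 0.126 without replicate 1 of #B-20 at 6 h). The value of #A-59 at 18 h was 0.39 (FDR 0.0164) without replicate 2 of parental cells at 18 h. In #B-20, the change to 6 h was −0.36 (edgeR FDR = 0.0109), and it passed in DESeq2 (−0.38, FDR 6.03e-05) and with the GC correction (−0.39, FDR 0.00178). Within #A-59, Ikzf3 fell to 6 h by −0.39 (edgeR FDR = 0.00221, but 0.148 with only the libraries compared). At 18 h it was above its untreated level by 0.33 (edgeR FDR = 0.00174). The first of these did not pass without either untreated #A-59 library (FDR up to 0.0209), the second without replicate 2 at 0 h or either library at 18 h (FDR up to 0.0461).

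Ebf1 (chr11:44618100-45008096) moved less. It was at 119 and 142 CPM, 99.6 and 116 CPM, and 150 and 158 CPM in parental cells at 0, 6 and 18 h. In #A-59 it was at 90.5 and 119 CPM, 63.3 and 85.3 CPM, and 140 and 135 CPM, and in #B-20 at 109 and 130 CPM, 98.2 and 110 CPM, and 133 and 142 CPM. Both libraries of #A-59 at 6 h were the lowest of all 18. The difference from parental cells at 6 h was −0.54 ± 0.14 (edgeR FDR = 0.00744), but the 2 libraries of this group were far apart. Without replicate 1 of #A-59 at 6 h the difference was −0.34 (FDR 0.115), and it did not pass without replicate 1 (FDR 0.0114) or replicate 2 (FDR 0.086) of parental cells at 6 h either. Between 6 and 18 h Ebf1 rose in #A-59 by 0.89 ± 0.14 (edgeR FDR = 7.99e-05) and in parental cells by 0.52 ± 0.14 (edgeR FDR = 0.00595). The parental rise did not pass in 8 of 18 fits with 1 library left out, and without replicate 1 at 6 h it was 0.38 (FDR 0.0996). In #B-20 the change in this interval was 0.41 (edgeR FDR = 0.0354).

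The ETS factors differed in their level and course. Spib (chr7:44525995-44532087) was at 2890 and 3100 CPM untreated, 2160 and 2240 CPM after 6 h, then 4150 and 4200 CPM after 18 h in parental cells, so that the 3 times did not overlap. Relative to 0 h it fell by 0.45 ± 0.07 at 6 h (edgeR FDR = 3.62e-04) and rose by 0.48 ± 0.07 at 18 h (edgeR FDR = 3.97e-05). Between 6 and 18 h Spib rose by 0.92 ± 0.07 in parental cells (edgeR FDR = 1.36e-08). The rise in this interval was 0.45 in #A-59 (edgeR FDR = 8.27e-05) and 0.50 in #B-20 (edgeR FDR = 4.89e-05). With only the libraries compared, that of #A-59 did not pass (0.44, FDR 0.0306). In the mutants no change from 0 to 6 h passed. The libraries of #A-59 had 3130 and 2880 CPM, 2850 and 3050 CPM, and 4130 and 3920 CPM, and #B-20 had 2500 and 2630 CPM, 2400 and 2420 CPM, and 3500 and 3320 CPM at the 3 times. The change from 0 to 6 h in #B-20 was −0.09 (edgeR FDR = 0.626), and the difference of the #A-59 response from the parental response was 0.42 (edgeR FDR = 0.0459), so a difference between the responses was not shown in edgeR, whereas DESeq2 gave an FDR of 0.00421. At 6 h Spib was higher in #A-59 than in parental cells by 0.42 ± 0.07 (edgeR FDR = 2.25e-04). At 18 h it was above its untreated level in #A-59 by 0.42 ± 0.07 (edgeR FDR = 1.50e-04) and in #B-20 by 0.41 ± 0.07 (edgeR FDR = 3.23e-04), and it was lower in #B-20 than in parental cells by −0.29 ± 0.07 (edgeR FDR = 0.00694). Spib values moved with the GC correction. After a GC correction the rise in #B-20 was 0.24 (FDR 0.0175) and its difference from parental cells at 18 h was −0.22 (FDR 0.0314). The latter also did not pass in 12 of 18 fits with 1 library left out (FDR up to 0.0727 without replicate 2 of #B-20 at 18 h). The rise in #B-20 did not pass without replicate 1 of #B-20 at 0 h or at 18 h (FDR 0.0124 and 0.0101), nor the parental fall to 6 h without replicate 2 at 0 h or replicate 1 at 6 h (FDR 0.0113 and 0.0116).

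Spi1 (chr2:91082374-91115759) stayed within the narrowest range of the 9 tested factors, with a ratio of 1.51 between its highest and lowest library. Parental cells had 56.1 and 63 CPM untreated, 52.9 and 56 CPM after 6 h, then 73.3 and 77.5 CPM after 18 h. The rise from 6 to 18 h, 0.47 ± 0.11, passed (edgeR FDR = 0.00138), but not without replicate 1 at 6 h or replicate 2 at 18 h (FDR 0.0294 and 0.0267). The mutants ranged from 51.5 to 74.2 CPM over all times. No difference of a mutant from parental cells passed in edgeR with all libraries, but the calls at 6 h depended on the processing. The difference in #A-59 at 6 h was 0.36 (95% interval 0.13 to 0.59, edgeR FDR = 0.0144), and it passed without a filter on low counts (0.37, FDR 0.00702). In #B-20 it was 0.28 (edgeR FDR = 0.0692), and it passed with the GC correction (0.51, FDR 4.90e-05) and with only the libraries compared (0.29, FDR 0.00729). Of 8 myeloid markers, 3 were tested. Itgam and Csf1r were higher in #A-59 than in parental cells at 6 h by 3.87 ± 0.29 (edgeR FDR = 8.51e-09) and 2.34 ± 0.51 (edgeR FDR = 0.00171). Adgre1 was at 1.25 and 1.33 CPM in #A-59 and 1.22 and 0.982 CPM in parental cells. Itgam was also a DEG in #B-20 at 6 h, with 1.43 and 1.89 CPM against 0.306 and 0.777 CPM in parental cells. The part of these markers in the values of Spi1 was not tested.

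Bach2 (chr4:32238413-32586109) rose by 18 h in all 3 genotypes. Parental libraries measured 181 and 201 CPM untreated, 219 and 235 CPM after 6 h, then 329 and 368 CPM after 18 h. The corresponding values were 227 and 238 CPM, 262 and 320 CPM, and 372 and 374 CPM in #A-59, and 269 and 265 CPM, 328 and 298 CPM, and 348 and 354 CPM in #B-20. The 3 times did not overlap in any genotype. The rise from 0 to 18 h was 0.87 ± 0.10 in parental cells (1.82-fold, edgeR FDR = 9.34e-07), 0.68 ± 0.10 in #A-59 (edgeR FDR = 1.52e-05) and 0.39 ± 0.10 in #B-20 (edgeR FDR = 0.00355). The last did not pass without any 1 of the 4 libraries compared (FDR 0.0271 to 0.0333). The smaller rise of #B-20 did not pass the test against the parental rise, with a difference of −0.47 (edgeR FDR = 0.113). Bach2 started higher in #B-20, where it exceeded the untreated parental level by 0.48 ± 0.10 (edgeR FDR = 0.00132), and it was also higher at 6 h by 0.46 ± 0.10 (edgeR FDR = 0.00141). Without replicate 1 of untreated parental cells the first value was 0.41 (FDR 0.0332), and without replicate 1 of #B-20 at 6 h the second was 0.38 (FDR 0.0323). The first also did not pass without either untreated #B-20 library (FDR up to 0.0156), nor the second without replicate 1 of parental cells at 6 h (FDR 0.0363). In #A-59 at 6 h Bach2 was higher than parental by 0.36 ± 0.10 (edgeR FDR = 0.00743), which did not pass in 12 of 18 fits with 1 library left out. It was 0.21 (FDR 0.0929) without replicate 2 of #A-59 and 0.30 (FDR 0.0969) without replicate 1 of parental cells. By 18 h the 3 genotypes lay between 329 and 374 CPM, and no difference from parental cells passed. A gene on the opposite strand, Bach2os, overlaps Bach2 by 537 bases and measured at most 3.16 CPM.

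Bcl6 (chr16:23965050-23988866) was close to the limit of detection. Its counts were 8 and 11 untreated, 8 and 8 after 6 h, then 2 and 23 after 18 h in parental cells. They were 15 and 12, 17 and 13, and 21 and 16 in #A-59 and 10 and 14, 6 and 11, and 19 and 21 in #B-20 at the same times. The parental libraries at 18 h held both the lowest and the highest count. In CPM, the 3 times of #A-59 did not overlap (0.508 and 0.621, 0.644 and 0.785, then 1.1 and 0.965), and this clone lay above parental cells at 0 h (0.289 and 0.455) and 6 h (0.35 and 0.327). The total over 18 libraries was 235 counts, at 0.178 to 1.19 CPM. None of its tests passed, and the intervals were wide. The parental change from 0 to 18 h, for example, was 1.08 ± 0.55 with a 95% interval of −0.07 to 2.23 (edgeR FDR = 0.123), and it ranged from −1.04 to 1.65 as single libraries were left out. A difference in Bcl6 within this interval was not detectable at this depth.

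Irf8 (chr8:120736358-120756694) was the factor that separated the clones. Parental libraries measured 55 and 74.6 CPM, 51.4 and 55.9 CPM, and 63.2 and 68.6 CPM at 0, 6 and 18 h, and no change between these times passed. #A-59 had 58.3 and 61.6 CPM, 39 and 31.9 CPM, and 68.4 and 66.5 CPM, so that its 6 h libraries were the lowest of all 18. #B-20 had 71.9 and 83.6 CPM, 89.9 and 84.6 CPM, and 110 and 118 CPM. At 6 and 18 h its libraries were above all those of the other genotypes at the same time. Relative to parental cells at 6 h, Irf8 was lower in #A-59 by −0.59 ± 0.13 (edgeR FDR = 0.00146) and higher in #B-20 by 0.70 ± 0.13 (edgeR FDR = 3.51e-04). At 18 h it was higher in #B-20 by 0.79 ± 0.13 (1.72-fold, edgeR FDR = 1.20e-04), and the value for #A-59 was 0.03 (edgeR FDR = 0.905). Within #A-59, Irf8 fell to 6 h by −0.75 ± 0.13 (edgeR FDR = 7.19e-04, but 0.0415 with only the libraries compared). It rose again to 18 h by 0.92 ± 0.13 (edgeR FDR = 1.45e-05). Within #B-20 it rose from 0 to 18 h by 0.55 ± 0.12 (edgeR FDR = 0.00207). None of these responses was shown to differ from the parental response, and the lowest adjusted p was that of #B-20 at 18 h (0.52, edgeR FDR = 0.191), which passed in edgeR only without a filter on low counts (0.62, FDR 0.00828). Single libraries decided some calls. The difference of #A-59 at 6 h was −0.46 (FDR 0.0151) without replicate 2 of #A-59 and −0.54 (FDR 0.0207) without replicate 2 of parental cells, and its fall to 6 h did not pass without replicate 2 at 0 h (FDR 0.0118). The difference of #B-20 at 6 h was 0.63 (FDR 0.0114) without replicate 1 of parental cells and 0.74 (FDR 0.00237) without replicate 2 of #B-20, and its rise to 18 h was 0.42 (FDR 0.0554) without replicate 1 at 0 h and did not pass without either library at 18 h.

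Irf4 (chr13:30749233-30766981) carried 5 of the 6 DEGs in the comparisons of genotypes and of stimulated with untreated cells. Parental libraries measured 161 and 163 CPM untreated, 117 and 124 CPM after 6 h, then 54.3 and 45.7 CPM after 18 h, and these times did not overlap. Relative to 0 h, Irf4 fell by 0.43 ± 0.10 at 6 h (edgeR FDR = 0.00875) and by 1.70 ± 0.11 at 18 h (3.25-fold, edgeR FDR = 3.30e-09). #A-59 had 121 and 120 CPM untreated, 53.9 and 58.5 CPM after 6 h, then 62.5 and 50.8 CPM after 18 h. Here the level at 6 h already overlapped that at 18 h. The log2-fold change was −1.11 ± 0.11 at 6 h (edgeR FDR = 3.05e-06) and −1.09 ± 0.11 at 18 h (edgeR FDR = 2.71e-07), and between 6 and 18 h the change was 0.01 (95% interval −0.21 to 0.24, edgeR FDR = 0.933). #B-20 had 129 and 137 CPM, 79.3 and 67.7 CPM, and 62.3 and 60.4 CPM. Its libraries at 6 h lay between those of the other genotypes, and the log2-fold change relative to 0 h was −0.85 ± 0.11 at 6 h (edgeR FDR = 9.36e-05) and −1.12 ± 0.11 at 18 h (edgeR FDR = 6.81e-07). In comparison with parental cells at 6 h, Irf4 was lower by −1.10 ± 0.11 in #A-59 (2.14-fold, edgeR FDR = 2.40e-07) and by −0.71 ± 0.11 in #B-20 (1.64-fold, edgeR FDR = 5.30e-05). In untreated cells it was lower in #A-59 by −0.42 ± 0.10 (edgeR FDR = 0.00774), and in #B-20 the value was −0.28 (edgeR FDR = 0.0685). At 18 h the values were 0.19 for #A-59 (edgeR FDR = 0.288) and 0.30 for #B-20 (edgeR FDR = 0.0527). The tests of the difference between the responses did not pass, at −0.68 for #A-59 at 6 h (edgeR FDR = 0.0209) and −0.43 for #B-20 (edgeR FDR = 0.319). At 18 h they were 0.61 (edgeR FDR = 0.157) and 0.58 (edgeR FDR = 0.0833). The first of these 4 tests passed in DESeq2 (−0.68, FDR = 0.00213), and without a filter on low counts the first and the last passed in edgeR (FDR 9.86e-04 and 0.00166). The parental fall to 6 h and the difference of untreated #A-59 each did not pass in 10 of 18 fits with 1 library left out (FDR up to 0.12 without replicate 1 of parental cells at 6 h and up to 0.0575 without replicate 2 of untreated parental cells), whereas the fall of #A-59 to 18 h was −0.97 without its replicate 2 at 18 h. Without replicate 2 of #B-20 at 6 h, Irf4 in this clone was lower than parental by −0.60 (FDR 0.00318).

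**Figure D4:**
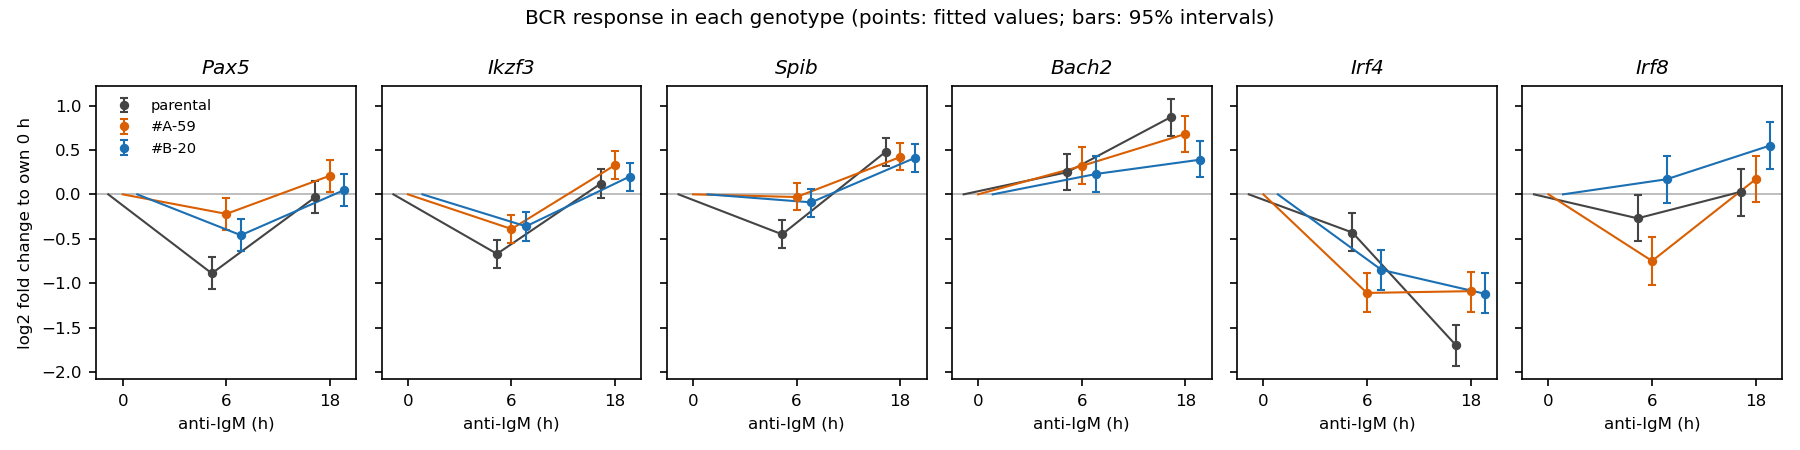
Log2-fold change relative to the untreated group of the same genotype at 6 and 18 h for Pax5, Ikzf3, Spib, Bach2, Irf4 and Irf8, with 95% intervals, by genotype. Irf4 of #A-59 is at −1.11 at 6 h and −1.09 at 18 h while parental Irf4 goes from −0.43 to −1.70, and Pax5 at 6 h is at −0.89 in parental cells, −0.46 in #B-20 and −0.22 in #A-59.

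Irf4 and Irf8 can bind DNA with the same ETS partners, so their relative level is also given, as the ratio of their CPM per kb in each library. In parental cells the ratio was 5.8 and 4.33 untreated, 4.5 and 4.4 after 6 h, then 1.71 and 1.32 after 18 h. In #A-59 it was 4.12 and 3.87, 2.74 and 3.64, and 1.81 and 1.51. In #B-20 it was 3.56 and 3.25, 1.75 and 1.59, and 1.13 and 1.02. On this scale Irf4 exceeded Irf8 in all 18 libraries, but this order depends on the exon lengths used (4903 bases for Irf4, 9723 bases for Irf8). In CPM, mean Irf8 was above mean Irf4 at 18 h in parental cells (65.9 and 50), #A-59 (67.5 and 56.6) and #B-20 (114 and 61.3). The same held in #B-20 at 6 h (87.3 and 73.5). The ratio was lower at 18 h than at 0 h in every genotype without overlap. At each time both #B-20 libraries lay below both libraries of the other genotypes.

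Prdm1 (chr10:44437174-44528558) was essentially at the detection limit. Its counts were 0 and 1 untreated, 5 and 4 after 6 h, then 1 and 2 after 18 h in parental cells. They were 1 and 2, 2 and 1, and 0 and 0 in #A-59 and 1 and 1, 2 and 2, and 1 and 0 in #B-20. The sum was 26 counts in 18 libraries, and 16 libraries held at most 3. A library with 0 counts allows up to 3, which corresponds to 0.102 to 0.268 CPM depending on its depth, and the highest library was at 0.218 CPM. These limits cover counting error only. A difference in Prdm1 was not detectable at this depth, and the gene was not tested.

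The 2 clones were also compared with each other. At 0 h none of the 9 factors passed in edgeR or DESeq2, where 8.41% of all tested genes did in edgeR. At an unadjusted p under 0.05 edgeR gave 4 factors, and the lowest adjusted p was that of Ikzf3 (−0.26 in #B-20 relative to #A-59, edgeR FDR = 0.0267). With the GC correction, Irf8 (0.47, FDR 0.00914) and Ikzf3 (−0.28, FDR 0.00928) passed at 0 h. At 6 h 4 of 9 factors differed (background 18.7%). Irf8 was higher in #B-20 than in #A-59 by 1.29 ± 0.13 (2.45-fold, edgeR FDR = 6.67e-07) and was a DEG (background 5.82%). Pax5 was lower by −0.34 ± 0.09 (edgeR FDR = 0.00569), Spib was lower by −0.29 ± 0.07 (edgeR FDR = 0.00585), and Irf4 was higher by 0.39 ± 0.11 (edgeR FDR = 0.00994). With a GC correction these were −0.25 (FDR 0.0221), −0.05 (FDR 0.651) and 0.34 (FDR 0.0166), and none of the 3 passed. They also did not pass in 4, 4 and 14 of 18 fits with 1 library left out. Pax5 was −0.26 (FDR 0.0984) and Spib −0.29 (FDR 0.0417) without replicate 2 of #B-20 at 6 h, and Irf4 was 0.26 (FDR 0.165) without replicate 1 of this group. At 18 h 2 of 9 differed (background 16.2%). Irf8 was higher in #B-20 by 0.75 ± 0.12 (edgeR FDR = 1.90e-04) and Ikzf3 lower by −0.39 ± 0.08 (edgeR FDR = 8.67e-04), the latter not without replicate 1 of #A-59 or of #B-20 at 18 h (FDR 0.0202 and 0.0104). Neither was a DEG, where 4.82% of all tested genes were.

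The promoter sequence of Irf4 is shown because this gene carried most of the DEGs, together with short windows that hold the motif matches found in the factors' own promoters. RefSeq promoter windows on GRCm38.p6, from 250 bases before to 50 bases after a start site, were present for 8 of the 10 genes (11 windows, none for Spi1 and Ikzf3). The 250 bases before the start site of Irf4 lie on chr13:30748983-30749232 (+ strand) and contain a TATA box, in capitals:
Irf4: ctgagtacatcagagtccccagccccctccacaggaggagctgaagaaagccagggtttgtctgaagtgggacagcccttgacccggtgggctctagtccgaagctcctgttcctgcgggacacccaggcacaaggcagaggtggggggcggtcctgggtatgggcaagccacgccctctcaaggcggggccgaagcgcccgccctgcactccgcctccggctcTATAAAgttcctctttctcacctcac
In all, 5 patterns were searched on both strands in the 11 windows and in all 32851 promoters of the table. TATAAA was found in Irf4 at position −26 and in Irf8 at −31 relative to the start site, and in 13.6% of all promoters. GGAA followed after 2 bases by GAAA, an ETS-IRF composite element to which Spi1 or Spib can bind with Irf4 or Irf8, was found in Bach2 and in 1 of 2 windows of Bcl6, and in 2.72% of all promoters. GAAA followed after 2 bases by GAAA, an element of IRF factors, was found in Ebf1 (3.44% of all promoters), and CACGTG, the E-box core bound by TFEB, in the other window of Bcl6 (7.15%). The extended TFEB motif TCACGTGA was found in none of the 11 windows and in 0.974% of all promoters. The matched windows, with the match in capitals, are for Irf8 chr8:120736315-120736344 (+), for Bach2 chr4:32417408-32417437 (+, match on the reverse strand), for Ebf1 chr11:44617935-44617964 (+, match on the reverse strand), and for Bcl6 chr16:23981292-23981321 and chr16:23988895-23988924 (−):
Irf8: ccccgccccatcTATAAAagcaggcgcgcg
Bach2: acgaacgggcTTTCCCTTCCggtctaggtg
Ebf1: ttcgttggatTTTCCCTTTCtttttttttc
Bcl6, ETS-IRF: cagaataacaGGAAAAGAAAaaaaaaaaga
Bcl6, E-box: cgtcacggagccCACGTGacggcggcggag
The ETS-IRF matches of Bach2 and Bcl6 lie inside the spans of these genes (chr4:32238413-32586109 and chr16:23965050-23988866), at internal start sites. Bach2 had only this 1 window, so the first base of its span was not searched. The promoter of Pax5 held none of these letters. A match describes the letters of a window and is not a measured binding site.

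The genes that Pax5 or Ebf1 are known to activate were then examined (20 genes, 18 tested). In parental cells 9 of the 18 fell and none rose from 0 to 6 h, where 4.24% of all tested genes fell and 3.1% rose. The median log2-fold change was −0.37 against 0.01 over all tested genes. From 6 to 18 h 15 rose (background 19.4%) and 1, Cr2, fell (background 18.9%), with a median of 1.07 against 0.03. In #A-59 and #B-20 2 and 1 of the 18 fell from 0 to 6 h, respectively (background 3.69% and 0.875%). In the test of the difference between the responses at 6 h, Siglecg was higher and Lef1 lower in #A-59 (background 0.646%). None of the 18 passed in #B-20 (background 0.183%). The median difference was 0.39 in #A-59 and 0.35 in #B-20, against −0.00 and 0.01 over all tested genes. For the other genes of the list a difference in response was not shown. Compared with parental cells at 6 h, 7 were higher and 1 lower in #A-59 (median 0.08, background 11.4% and 11.3%). In #B-20 9 were higher and 1 lower (median 0.43, background 6.23% and 8%). At 18 h 6 were higher and 6 lower in #A-59 (background 4.75% and 5.68%). The counts in #B-20 were 4 and 4 (background 5.7% and 8.55%). In untreated cells 3 were higher and 4 lower in #A-59, and 5 higher and 3 lower in #B-20 (background in either direction 9.56% and 10.7%). Bst1 was a lower DEG in both untreated clones, as were Cd55, Slamf6 and Capn2 in #A-59 at 18 h. Siglecg, an inhibitory sialic acid receptor of B cells, was at 12 and 11.8 CPM in parental cells at 6 h, 62 and 67.2 CPM in #A-59, and 39.4 and 43.8 CPM in #B-20. It was higher in the mutants by 2.44 ± 0.09 (edgeR FDR = 1.22e-12) and 1.80 ± 0.09 (edgeR FDR = 6.24e-11). Fcer2a (CD23) fell to 6 h in parental cells by −3.05 ± 0.25 (edgeR FDR = 2.70e-06) and was higher than parental at this time by 1.18 in #A-59 (edgeR FDR = 0.0019) and 1.19 in #B-20 (edgeR FDR = 0.00258). Cr2 (CD21, a complement receptor) was at 51.9 and 50.2 CPM in parental cells at 18 h, 205 and 206 CPM in #A-59, and 247 and 339 CPM in #B-20, with log2-fold changes of 2.01 ± 0.24 (edgeR FDR = 4.58e-05) and 2.52 ± 0.24 (edgeR FDR = 4.22e-06). Slamf6 and Vpreb3 rose in parental cells from 0 to 18 h by 2.32 (edgeR FDR = 6.60e-09) and 1.90 (edgeR FDR = 8.88e-08).

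Of 15 genes that Pax5 is known to repress, 8 were expressed enough to be tested. At 6 h, 4 were higher and 3 lower in #A-59 than in parental cells (background 11.4% and 11.3%), and 3 were higher and 1 lower in #B-20 (background 6.23% and 8%). Lmo2, a transcriptional adaptor, was higher by 1.09 in #A-59 (edgeR FDR = 1.41e-05) and 1.95 in #B-20 (edgeR FDR = 1.32e-08), and Notch1 by 1.91 (edgeR FDR = 4.75e-08) and 1.04 (edgeR FDR = 7.36e-05). Itgb3, which encodes the integrin β3 chain, was at 31.9 to 38.9 CPM in the 6 parental libraries and at 0.227 to 1.87 CPM in the 12 mutant libraries. Its log2-fold change at 6 h was −6.81 ± 0.34 in #A-59 (edgeR FDR = 8.00e-11) and −5.90 ± 0.32 in #B-20 (edgeR FDR = 2.48e-10), and the direction was the same at 0 and 18 h. In parental cells from 0 to 6 h, 1 of the 8 rose and 3 fell (background 3.1% and 4.24%).

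The list of plasma cell and antibody secretion genes held 25 genes (24 tested), and members differed from parental cells in both directions. In #A-59 at 6 h 2 were higher and 8 lower, where 11.4% of all tested genes were higher and 11.3% lower, and at 18 h 2 were higher and 9 lower (background 4.75% and 5.68%). In #B-20 at 6 h 2 were higher and 4 lower (background 6.23% and 8%), and at 18 h 2 were higher and 5 lower (background 5.7% and 8.55%). Medians were −0.23, −0.14, −0.17 and −0.12 in this order. Mzb1, a chaperone of immunoglobulin assembly, differed from parental cells in opposite directions in the clones. It was a DEG at each time, higher in #A-59 by 3.27 ± 0.13, 3.67 ± 0.13 and 2.83 ± 0.13 at 0, 6 and 18 h (edgeR FDR up to 2.33e-11) and lower in #B-20 by −1.60 ± 0.17, −1.31 ± 0.17 and −2.05 ± 0.17 (edgeR FDR up to 1.50e-05). Slamf7, a surface receptor of plasma cells and other lymphocytes, was at 24.8 and 23.9 CPM in parental cells at 18 h, 2.83 and 2.65 CPM in #A-59, and 11.2 and 11.6 CPM in #B-20. The corresponding log2-fold changes were −3.14 ± 0.16 (edgeR FDR = 7.57e-11) and −1.09 ± 0.13 (edgeR FDR = 6.45e-06). Jchain, the joining chain of secreted IgM and IgA, was lower at 18 h by −1.81 in #A-59 (edgeR FDR = 1.68e-05) and −1.31 in #B-20 (edgeR FDR = 1.51e-04). In parental cells 5 genes rose and 5 fell from 0 to 18 h (background 16.4% and 16.2%). Sdc1 (CD138) fell by −2.29 ± 0.28 (edgeR FDR = 3.13e-06), from 3.11 and 3.02 CPM to 0.624 and 0.622 CPM. At 18 h Sdc1 was higher in #B-20 than in parental cells by 1.31 ± 0.31 (edgeR FDR = 0.00391), with 1.42 and 1.68 CPM.

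Of 15 germinal center genes, 10 were tested. At 6 h 2 were higher and 5 lower in #A-59 than in parental cells (background 11.4% and 11.3%). In #B-20 3 were higher and 5 lower (background 6.23% and 8%). Efnb1 (ephrin-B1) rose in parental cells from 0 to 18 h by 1.13 (edgeR FDR = 3.84e-06) and was lower than parental at 18 h by −1.54 in #A-59 (edgeR FDR = 3.74e-07) and −1.32 in #B-20 (edgeR FDR = 1.18e-06). Elk3, an ETS factor, rose in parental cells by 1.86 (edgeR FDR = 5.75e-07) from 0 to 18 h. Of 17 genes that Bcl6 is known to repress, 16 were tested. In parental cells 4 rose and 7 fell from 0 to 18 h (background 16.4% and 16.2%). Gpr183, an oxysterol receptor that guides B cell position, rose by 2.60 ± 0.27 (edgeR FDR = 5.40e-07), Ccr6 rose by 1.01 (edgeR FDR = 0.00672), and Myc fell by −2.48 ± 0.34 (edgeR FDR = 1.40e-04). Relative to parental cells at 6 h, 3 of these 16 were higher and 4 lower in #A-59, and 1 was higher and 1 lower in #B-20, at the backgrounds given above for 6 h.

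Of 19 relatives of the factors in their own families, 14 were tested. Relative to parental cells, 7 were higher and 2 lower in #A-59 at 6 h, and 2 higher and 3 lower in #B-20. At 18 h 2 were higher and 0 lower in #A-59, and 1 was higher and 5 lower in #B-20. The shares over all tested genes are those given for the plasma cell list. Ebf3, the paralog of Ebf1, was at 17.7 and 17 CPM in untreated parental cells, 36.2 and 41.5 CPM in #A-59, and 54.9 and 62.2 CPM in #B-20. It was higher in the untreated mutants by 1.16 ± 0.11 (edgeR FDR = 4.25e-07) and 1.75 ± 0.11 (edgeR FDR = 1.58e-09), and it was also higher in both at 6 and 18 h. Bcl6b, a close relative of Bcl6, rose in parental cells at 6 h by 2.48 ± 0.43 (edgeR FDR = 5.30e-04), from 17 and 10 to 75 and 63 counts. The mutants held 5 to 10 counts of it at 6 h, and the difference was −3.35 ± 0.50 in #A-59 (edgeR FDR = 3.85e-05) and −2.76 ± 0.48 in #B-20 (edgeR FDR = 2.72e-04). From 0 to 18 h in parental cells, Irf7 rose by 1.11 (edgeR FDR = 1.83e-04) and Ikzf4 fell by −1.27 (edgeR FDR = 5.70e-04). Among 23 other factors of the B lineage (22 tested), 5 were higher and 3 lower in #A-59 at 6 h (background 11.4% and 11.3%). In #B-20 5 were higher and 3 lower (background 6.23% and 8%), where equal counts do not mean equal genes. Lef1 was higher in the untreated mutants by 1.20 (edgeR FDR = 3.18e-04) and 2.46 (edgeR FDR = 2.39e-08), but at 6 h its values were −0.58 in #A-59 (edgeR FDR = 0.0477) and 2.06 in #B-20 (edgeR FDR = 7.71e-08). In parental cells 7 of the 22 rose and 3 fell from 0 to 18 h (background 16.4% and 16.2%). Among them were Foxo1 (1.04, edgeR FDR = 8.56e-05), Mef2c (1.03, edgeR FDR = 1.55e-07) and Myb (−1.03, edgeR FDR = 1.58e-06).

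Of the 8 B cell markers, Ptprc (CD45) and Ms4a1 (CD20) rose in parental cells from 0 to 18 h by 1.12 (edgeR FDR = 1.55e-07) and 2.25 (edgeR FDR = 3.81e-05), and Cd24a fell by −1.74 (edgeR FDR = 3.46e-06). In all, 6 of the 8 rose and 1 fell in this comparison (background 16.4% and 16.2%). From 0 to 6 h none rose and 5 fell (background 3.1% and 4.24%), beside the dip of Pax5.

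The genes whose levels ran most parallel to a factor over the 18 libraries were listed as a description, by the Pearson correlation of log2 CPM among 8928 genes with a mean of at least 10 CPM. The libraries share 9 group means, so that these values carry no test. For Pax5 they were Cyb561a3 (0.971), Wnk2 (0.961) and the kinase gene Syk (0.959), for Spib Cacna1i (0.988), St3gal2 (0.979) and Cerk (0.978), and for Ikzf3 Ctso (0.961), Grap2 (0.96) and Rasgrp4 (0.956). For Irf4 they were Myc (0.961), Mapk6 (0.948) and Prkar2a (0.948), for Irf8 Pitpnm2 (0.908), Chsy1 (0.882) and Pxk (0.877), and for Ebf1 Camk2d (0.971), Fam107b (0.958) and Nipbl (0.939). Bach2 ran most parallel to Mtrf1l (0.945), Kctd11 (0.941) and Gm14382 (0.94), and Spi1 to Atraid (0.884), Zbtb7b (0.861) and Tmem121 (0.856). The highest value for Bcl6 was 0.794 (Rnf146).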

How the data were processed

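The 18 libraries of WEHI-231 cells were grouped as labelled. The deposited files hold raw read counts for each Ensembl gene, without normalization. The authors prepared TruSeq mRNA libraries without strand information, read them from 1 end, aligned the reads to GRCm38 with STAR 2.5 and counted them with featureCounts 1.5.0-p1, per the labels and the methods of the study, so that reads of overlapping genes are not separated by strand and close paralogs may share reads. Totals ranged from 11223588 to 29655262 counts.

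All other values were computed in R 4.3.3. In edgeR 4.0.16, filterByExpr left 15318 genes, TMM factors scaled the libraries, and a robust quasi-likelihood model with 1 mean for each of 9 groups was fitted to all 18 libraries. Adjusted p-values (FDR) are by Benjamini-Hochberg over all tested genes of each of 22 comparisons. The study's threshold for DEGs was used, with an FDR under 0.01 and more than 1 log2 unit of change. On simulated counts the fit called 196 of 200 genes changed by 2 log2 units (untreated #A-59 against parental cells, 14814 genes in the fit) and 1 unchanged gene. Smaller changes, such as those of the factors, were not simulated, and each gene had the same spread in all groups. The result therefore does not cover smaller changes or groups with a wider spread. The alternatives were DESeq2 1.42.0, its size factors in edgeR, other count filters, only the libraries compared, a replicate block, a GC correction (loess, span 0.5, GC content known for 99.2% of tested genes), both together, and each library left out in turn. Exon lengths and GC content came from GENCODE vM39, positions and promoters from RefSeq on GRCm38, and 51731 of 55487 identifiers matched vM39.

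The 10 factors and the gene lists, written by hand, were chosen with earlier results of these data known, and no list was tested as a set. By rule, the text names all 10 factors, the 3 genes most parallel to each, and from each list up to 4 genes called in both clones at the same time and up to 4 called in parental cells at 18 h. Mzb1, Csf1r, Adgre1, Bst1, Cd55 and Capn2 were named beside the rule after their values were seen. Tcfec, 1 gene of the lists, found no match.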

Additional observations from a re-analysis of the deposited data

Results flagged for a closer look

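For Pax5, the change from 0 to 6 h of BCR stimulation was −0.22 in #A-59 and −0.89 in parental cells, so the fall was smaller in the mutant. The difference of 0.67 on the log2 scale was the 1 of 36 such tests that reached an FDR under 0.01.

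The other results set clone #B-20 against clone #A-59. At 6 h, #B-20 differed from #A-59 by 1.29 for Irf8, 0.39 for Irf4, −0.34 for Pax5 and −0.29 for Spib, and at 18 h by 0.75 for Irf8 and −0.39 for Ikzf3. Of these, the values of Irf8 had the same direction and stayed under an FDR of 0.01 in each alternative and each fit with 1 library left out. Irf8 moved in opposite directions from parental cells in the 2 clones at 6 h (−0.59 and 0.70). Replicate 2 of #B-20 at 6 h had 2.9% of its counts in a single identifier, and its part in these values is given by the fits without it.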

How the results depend on the processing

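All 7 DEGs among the factors kept their direction and remained DEGs under the 8 alternatives that used all libraries or those compared, and of the 18 fits with 1 library left out, 17 kept all 7. The exception was Irf4 in #A-59 from 0 to 18 h, which ranged from −1.27 to −0.97. No value that passed changed its direction. Of the 53 other values under an FDR of 0.01, DESeq2 kept 53, its size factors 52, the filter of at least 10 counts in every library 53, no filter 49, the GC correction 48, the GC correction with replicate block 49, only the libraries compared 40, and leaving out 1 library 38 to 50.

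Of the tests of a clone against parental cells, 9 to 17 reached an FDR under 0.01 as 1 library was left out (17 with all libraries), with 9 without replicate 1 and 10 without replicate 2 of parental cells at 6 h. Of the tests of 18 against 6 h, 1 to 2 were DEGs (1 with all libraries). The second was Bcl6 without replicate 1 of parental cells at 18 h (1.77), Irf8 in #A-59 without its replicate 1 at 6 h (1.07) and Ebf1 in #A-59 without its replicate 2 at 6 h (1.11). For the difference in response, 1 test passed with all libraries, 0 to 2 with 1 library left out, 4 without a filter on low counts, 3 in DESeq2, 2 under the GC correction with replicate block and 0 with only the libraries compared. For clone against clone, 6 passed, and 3 with only the libraries compared. Where a fit left 1 library in a group, its spread was taken from the other groups.

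The replicate numbers were not treated as pairs in the main fit, because no label says that a number marks a shared batch. Deviations of same-numbered libraries correlated above 0.1 in 14 of 36 pairs of groups (−0.0258 to 0.32, median 0.0777). Between times of the same clone these values lay at 0.112 to 0.308, and in parental cells at 0.0694 to 0.126. With the replicate block, all 60 values under an FDR of 0.01 were kept and 5 more passed (Ebf1 in #A-59 at 6 and 18 h against 0 h, in #B-20 at 18 against 6 h and in #B-20 against #A-59 at 6 h, and Ikzf3 in #B-20 at 6 h against 0 h), so that 23 instead of 20 tests of the BCR response did.

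The background counts of DEGs were less stable than those of the factors. With at least 10 counts in every library they fell from 732 to 393, 1212 to 718 and 753 to 433 for #A-59 against parental cells at 0, 6 and 18 h, from 790 to 472, 1031 to 599 and 951 to 565 for #B-20, from 589 to 334, 891 to 521 and 738 to 416 for #B-20 against #A-59, and from 402 to 254 for parental cells from 0 to 6 h. With only the libraries compared, DEGs of #A-59 from 0 to 6 h fell from 213 to 49 and those of its difference in response at 6 h from 52 to 1. Without a filter, DEGs of #B-20 from 0 to 6 h went from 59 to 97. Counts limited Bcl6 (235 in all) and Prdm1 (26 in all).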
